A study of Mus musculus with 6 samples.

Results

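The 43 genes described here act in mitosis, from the cyclins and kinase that drive entry to the proteins that split the cell. They were taken by name from a fixed list, and that list was drawn up with earlier results of these data known. Of the 43 genes 42 had a probe set with that symbol alone, out of 21559 units tested (19938 genes with 1 symbol, and probe sets shared by several symbols). Ccnb1, cyclin B1, was not analysed here. Where a gene had several probe sets, the one with the highest mean over the 6 arrays stood for it.

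The cells were C2C12, an established mouse myoblast line that fuses into myotubes once serum is lowered. Growth medium held 10% fetal bovine serum, and at about 90% density the cells were switched to 2% horse serum. On day 1 of differentiation they received either a control siRNA (siCon) or an siRNA against the mouse H19 transcript (simH19), and RNA was taken 40 h later. Each group has 3 Affymetrix arrays, both groups are wild type cells of this 1 line, and the labels do not say whether the triplicates were separate cultures. The p-values then cover only the spread between these samples, and that spread may be technical. The H19 gene gives an imprinted noncoding RNA, abundant in differentiating muscle cells.

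Mitosis genes are transcribed late in the cell cycle. In resting cells the DREAM complex holds them silent through the CHR element of their promoters, and in G2 the factors B-Myb and Foxm1 act at the same element, often beside CCAAT boxes bound by NF-Y. Myoblasts leave the cell cycle for good when they become myotubes, and a C2C12 culture holds both myotubes and undifferentiated cells. A bulk array cannot tell fewer dividing cells from less mRNA in each, and this holds for every value below.

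Promoter windows, taken from RefSeq on build GRCm38.p6, covered 250 bases before and 50 after the annotated start site, and 34 of the 43 genes had one. They are shown because most of the list carries the same short elements. The CHR element was searched as TTTGAA or TTCGAA and the CCAAT box as CCAAT, both on either strand, in the first window listed per gene. A CHR match lay in 25 of 34 windows (73.5%), against 19.4% of the windows of all 27025 genes in the table and 16.8% of the 15614 measured genes with a window. A CCAAT match lay in 26 of 34 (76.5%), against 37.9% of all windows, and both lay in 22 of 34 (64.7%), against 7.70%. Of the 35 CHR matches 23 began between 60 bases before and 40 bases after the start site. An E2F-type site, searched as GCGGGAA or TTTGGCG on either strand, lay in 1 window, that of Melk, against 6.07% of all windows. The searched strings share no overlap in the windows printed here, and a match is a description of these letters and not evidence that a factor binds.

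The 4 windows below belong to the genes with the smallest p-values in the comparison that had a window, Prc1, Aurka, Ckap2 and Mki67. The first 2 read higher and the last 2 lower with H19 siRNA, none of them past the threshold. Capitals mark CHR and CCAAT matches, the latter read as ATTGG where they lie on the other strand. Prc1 lies at chr7:80294201-80294500 on the plus strand, Aurka at chr2:172370521-172370820, Ckap2 at chr8:22185770-22186069 and Mki67 at chr7:135716330-135716629, all 3 on the minus strand.
Prc1: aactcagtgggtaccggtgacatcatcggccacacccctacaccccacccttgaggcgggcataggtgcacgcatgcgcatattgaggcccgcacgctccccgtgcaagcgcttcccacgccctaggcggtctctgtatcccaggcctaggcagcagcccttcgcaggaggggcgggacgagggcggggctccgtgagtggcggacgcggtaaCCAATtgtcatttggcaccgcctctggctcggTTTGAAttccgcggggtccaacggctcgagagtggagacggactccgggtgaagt
Aurka: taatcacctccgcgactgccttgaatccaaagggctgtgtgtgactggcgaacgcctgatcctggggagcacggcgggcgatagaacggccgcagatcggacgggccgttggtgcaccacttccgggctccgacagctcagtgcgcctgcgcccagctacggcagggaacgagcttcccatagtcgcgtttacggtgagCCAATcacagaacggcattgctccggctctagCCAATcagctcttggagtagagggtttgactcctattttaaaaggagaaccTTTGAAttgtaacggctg
Ckap2: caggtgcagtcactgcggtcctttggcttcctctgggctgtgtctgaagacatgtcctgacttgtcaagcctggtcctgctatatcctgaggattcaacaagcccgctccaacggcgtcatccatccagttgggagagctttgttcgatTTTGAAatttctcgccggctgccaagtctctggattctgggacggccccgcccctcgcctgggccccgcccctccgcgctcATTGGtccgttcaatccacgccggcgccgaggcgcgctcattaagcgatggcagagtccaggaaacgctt
Mki67: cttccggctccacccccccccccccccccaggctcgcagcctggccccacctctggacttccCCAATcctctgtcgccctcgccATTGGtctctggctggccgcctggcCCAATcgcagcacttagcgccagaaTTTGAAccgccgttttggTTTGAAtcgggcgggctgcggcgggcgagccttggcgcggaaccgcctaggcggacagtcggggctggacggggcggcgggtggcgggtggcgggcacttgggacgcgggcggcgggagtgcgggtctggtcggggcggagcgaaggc
The CHR match of Prc1 began 5 bases before the start site, with a CCAAT box 37 bases before it. In Aurka the CHR match lay 32 bases after the start site, behind CCAAT boxes 51 and 19 bases before it. Positions count from the start site of the window used. The annotated Aurka gene reaches base 172370886, upstream of its window. Mki67 held 2 CHR and 3 CCAAT matches.

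Before the results, the samples were checked. The probe set listed under Mir675, a microRNA inside H19, and Supt6 read 12.21, 12.22 and 12.27 with control siRNA and 10.38, 10.28 and 10.37 with H19 siRNA, which is 26.9% of the control level. The annotation lists none under the symbol H19. All 13 muscle markers, among them Myod1, Myog and the embryonic myosin Myh3, lay above the median of all rows of the table, as did 3 of 4 fibroblast and 2 of 6 macrophage and leukocyte markers, whereas 0 of 5 endothelial and 0 of 4 adipocyte markers did. Mean correlation with the other arrays was 0.9962 for the second H19 siRNA array and 0.9968 to 0.9971 for the other 5. The groups are given with and without it where it matters.

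No mitosis gene passed the test between H19 siRNA and control siRNA, and every difference was small. In limma, with Benjamini-Hochberg adjustment over all units, 0 of 42 genes had an adjusted p under 0.05, against 0.199% of all units (0.125% higher and 0.0742% lower). The smallest adjusted p was 0.484, for Prc1. At an unadjusted limma p under 0.05 there were also 0 of 42, whereas 10.9% of all units were below it. The differences in log2 expression, H19 siRNA minus control siRNA, ran from -0.12 for Pbk to 0.11 for Aurka. Of the 42 genes 29 differed by less than 0.05 and 38 by less than 0.1. The median was -0.013, beside 0.014 for all units, and 25 of 42 were below 0, beside 42.0% of all units.

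The arrays bounded these differences closely. The 95% interval of a difference reached a median of 0.10 to either side of its value, and it lay inside a 1.3-fold change either way for 42 of 42 genes, beside 95.8% of all units. The widest reach was -0.31 for Cenpe on the lower side and 0.22 for Aurka on the upper side, that is 19.6% lower and 16.9% higher. These intervals hold gene by gene and not for all 42 at once. RMA pulls changes of dim probe sets towards 0, and all 42 genes lay above the median of all rows, beside 57.0% of units. Leaving out 1 array at a time took the limits as far as -0.39, past a 1.3-fold change, and 0.27. The 1.3-fold limit was chosen after the values were seen, in place of a narrower one inside which all 42 intervals also lay, though fewer of all units did.

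**Figure D1:**
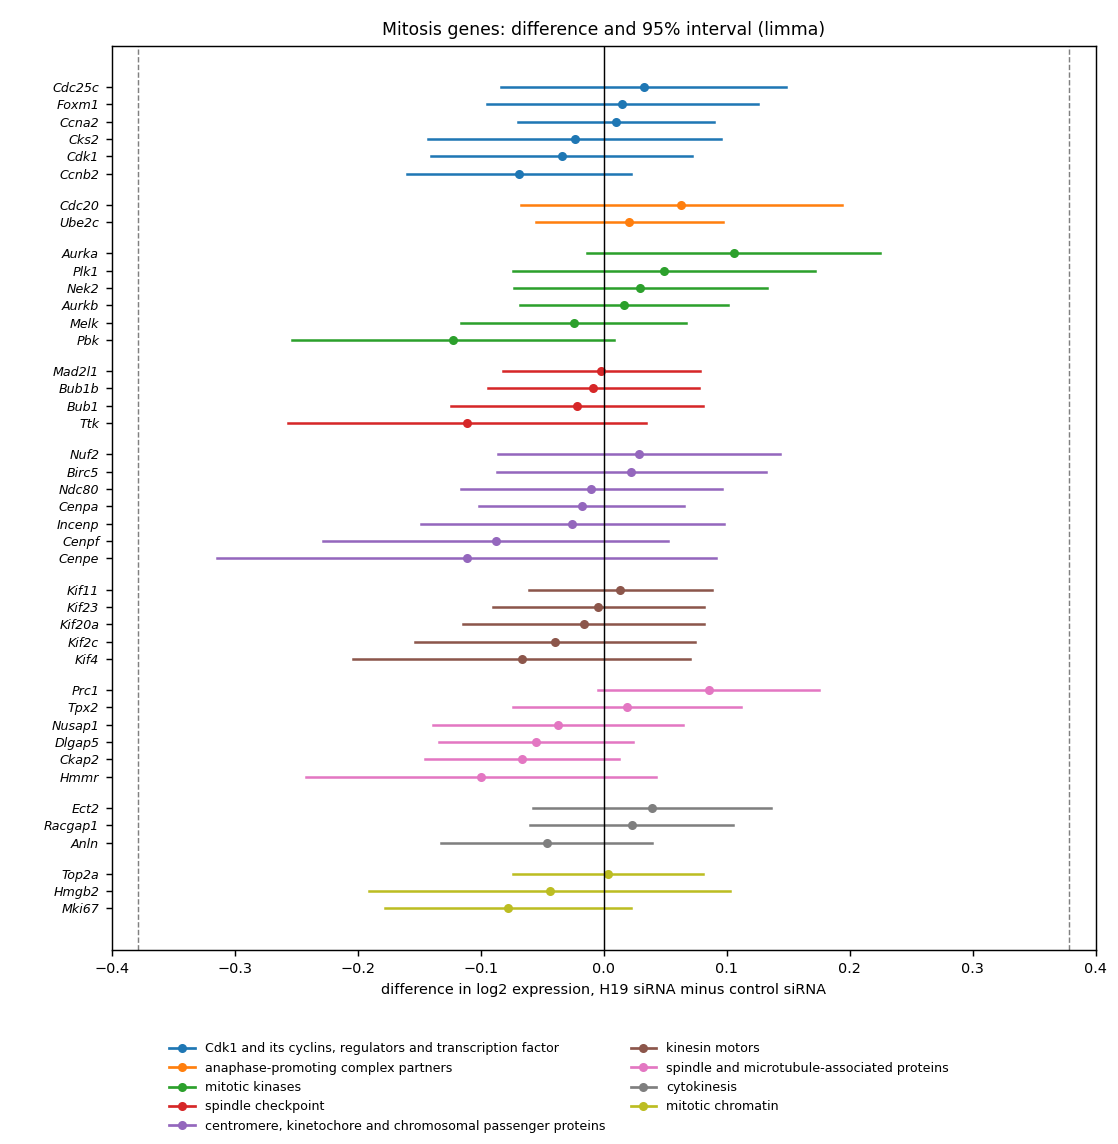
Each point is the difference in mean log2 expression of 1 gene, H19 siRNA minus control siRNA (3 arrays each), with its 95% interval from limma as a line, coloured by role group. Dashed lines mark a 1.3-fold change, and all 42 intervals lie between them.

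The 3 arrays of one group lay wholly beyond the other 3 for 9 of 42 genes, beside 17.6% of all units. Of these 7 were lower with H19 siRNA (7.09% of units) and 2 were higher (10.5% of units). Kif11, the motor that pushes spindle poles apart, counts among the latter with 10.26 on all 3 control arrays and 10.26, 10.26 and 10.29 with H19 siRNA, a difference of 0.014 (-0.0028 after median centring). With 1 array left out, the shares of units given here count both directions together. Without the second H19 siRNA array 15 genes did not overlap (30.5% of units), 7 of them lower. Without the third there were 17 (29.7%), 14 of them lower, and without the third control array 14 (28.1%), 10 of them lower. Without the first control array there were 12 (8 lower), without the second 11 (7 lower) and without the first H19 siRNA array 10 (8 lower). These 3 stood beside at most 26.8% of units. The share of units lower was not taken with an array left out, so these counts of lower genes have none to be set against.

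No gene that times entry into mitosis passed the test, beside 0.199% of all units. Of the 6 measured only Ccnb2 had groups that do not overlap, beside 17.6% of all units. Cdk1 is the kinase whose activity with cyclin B starts mitosis. It read 11.41, 11.50 and 11.46 with control siRNA and 11.39, 11.39 and 11.49 with H19 siRNA, and differed by -0.034 (95% interval -0.14 to 0.072). The groups overlap, and the third H19 siRNA array lies above 2 of the 3 control arrays. Ccnb2, cyclin B2, read 11.19, 11.29 and 11.22 against 11.18, 11.14 and 11.17, a difference of -0.069 (-0.16 to 0.022, limma adjusted p = 0.582). All 3 H19 siRNA arrays were below the lowest control array, by 0.0099 at the closest pair. Ccna2, cyclin A2, differed by 0.0099 and Cdc25c, a phosphatase that activates Cdk1, by 0.032.

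Foxm1, the transcription factor that turns on much of this list, read 9.32, 9.37 and 9.37 with control siRNA and 9.40, 9.29 and 9.42 with H19 siRNA. Its difference was 0.015 (-0.095 to 0.13), with the H19 siRNA arrays on both sides of all 3 controls. The sign of so small a value has no meaning: it turned after median centring and when control siRNA replicate 1 or H19 siRNA replicate 1 or 3 was left out. Cks2, a small Cdk-binding protein, differed by -0.024. Its 2 other probe sets gave -0.0051 and 0.024, and since all 3 are annotated with the same transcripts they may share targets with near-identical copies.

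Cdc20 and Ube2c work with the anaphase-promoting complex, the ubiquitin ligase that destroys cyclin B and securin. Cdc20 read 9.88, 9.94 and 9.78 against 9.92, 9.87 and 10.01 with H19 siRNA, a difference of 0.063 (-0.067 to 0.19). The highest array was an H19 siRNA one and the lowest a control, with the other 4 intermixed. Ube2c, the E2 enzyme of the complex, differed by 0.021.

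Mitotic kinases held both the largest positive and the largest negative difference of the list. Aurka, which matures centrosomes and helps to build the spindle, read 9.21, 9.32 and 9.25 with control siRNA and 9.43, 9.29 and 9.38 with H19 siRNA. It differed by 0.11 (SE 0.050, limma adjusted p = 0.510), and only the second H19 siRNA array fell within the control range. Pbk, a kinase active in dividing cells, read 9.00, 9.00 and 9.06 against 8.93, 8.79 and 8.97, a difference of -0.12 (SE 0.055, limma adjusted p = 0.491). Its 3 H19 siRNA arrays were all below the controls, and the second was the lowest by a wide step. Without that array the difference of Pbk was -0.067 and that of Aurka 0.15.

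Plk1, a kinase needed from mitotic entry to cytokinesis, read 9.85, 9.76 and 9.90 with control siRNA and 9.91, 9.82 and 9.93 with H19 siRNA. The difference was 0.049 (-0.074 to 0.17), with overlapping groups. Aurkb, the kinase of the chromosomal passenger complex, read 10.18, 10.12 and 10.18 against 10.18, 10.15 and 10.20. The groups coincide, with a difference of 0.017 whose sign turned without control siRNA replicate 2. Nek2, which parts the centrosomes, differed by 0.030 and Melk, a further kinase of dividing cells, by -0.025.

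**Figure D2:**
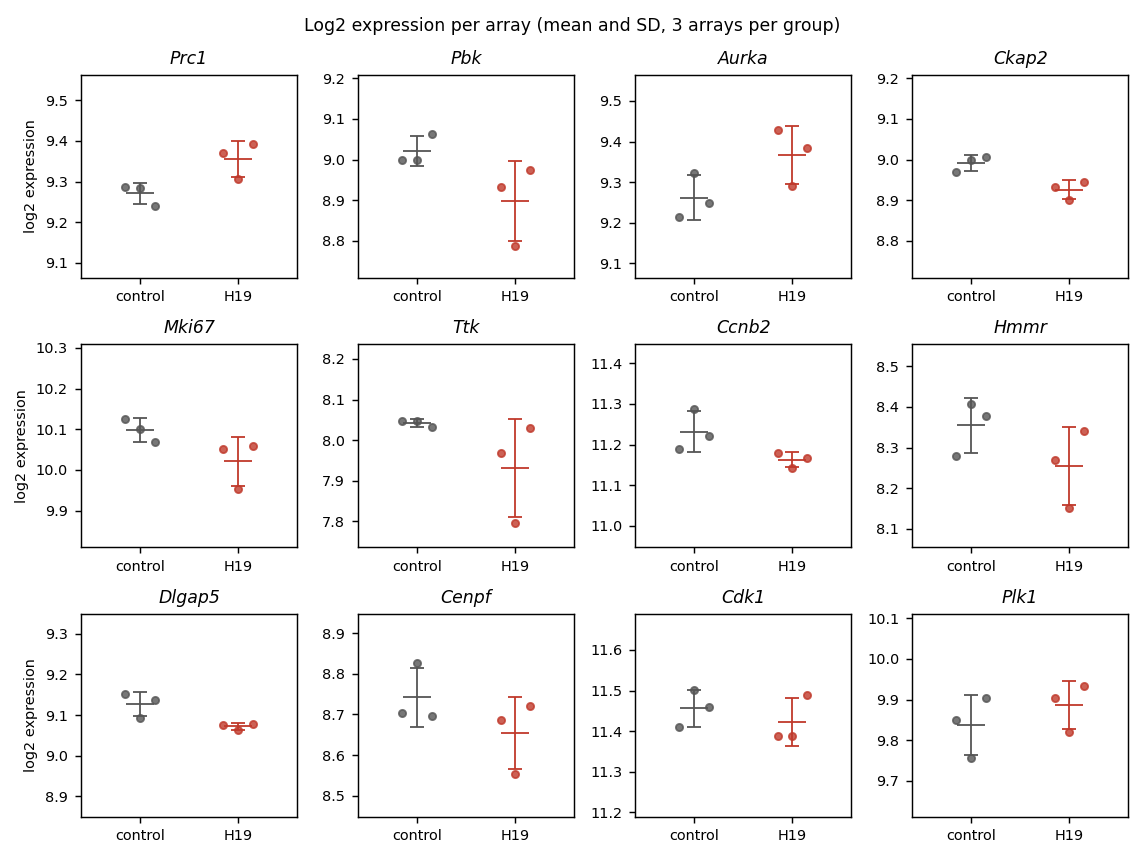
Log2 expression on each array for the 10 genes with the smallest p-values and for Cdk1 and Plk1, with group mean and SD (bars, 3 arrays each), on a vertical span of equal size around each gene's mean. Groups overlap or lie no more than 0.0244 apart in every panel.

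All 4 spindle checkpoint genes, which hold back anaphase until chromosomes are attached, had a negative difference, though 3 of them were near 0. Ttk, the kinase also called Mps1, read 8.05, 8.05 and 8.03 with control siRNA and 7.97, 7.80 and 8.03 with H19 siRNA. Its difference was -0.11 (-0.26 to 0.034, limma adjusted p = 0.576), and -0.044 without the second H19 siRNA array. That array set most of the gap, while the third all but touched the controls. Bub1, a kinetochore kinase, differed by -0.022, Bub1b, a subunit of the checkpoint inhibitor, by -0.0086, and Mad2l1, its partner that binds Cdc20, by -0.0019. Without the second H19 siRNA array 2 of the 4 were below 0.

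Among the 7 centromere, kinetochore and passenger genes the differences ran from -0.11 to 0.029, with 5 below 0. Cenpe, a kinetochore motor, read 8.81, 8.93 and 8.73 against 8.79, 8.54 and 8.81, a difference of -0.11 (-0.31 to 0.091). Its second control array is the highest and its second H19 siRNA array the lowest, and it had the widest spread within groups of the list (SD 0.13). Cenpf, a large protein of the outer kinetochore, read 8.70, 8.83 and 8.70 against 8.69, 8.55 and 8.72, with the same 2 arrays at the ends and a difference of -0.088. Without the second H19 siRNA array these differences were -0.026 and -0.038, and 3 of the 7 were below 0. Ndc80 and Nuf2, which together grip microtubules, differed by -0.010 and 0.029. Cenpa, the histone that marks centromeres, differed by -0.018, and the passenger proteins Birc5 (survivin) and Incenp by 0.022 and -0.026.

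Of the 5 kinesins 4 were below 0, and 1 without the second H19 siRNA array. Kif4, a chromosome-bound kinesin, read 8.14, 8.12 and 8.16 with control siRNA and 8.17, 7.95 and 8.10 with H19 siRNA, a difference of -0.067 that was -0.0064 without the second H19 siRNA array. The first H19 siRNA array was the highest of the 6. Kif2c, which depolymerises microtubules at kinetochores, differed by -0.040, and Kif20a and Kif23, motors of the central spindle, by -0.016 and -0.0044.

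Prc1, which bundles microtubules at the central spindle, had the smallest p of the list. It read 9.29, 9.28 and 9.24 with control siRNA and 9.37, 9.31 and 9.39 with H19 siRNA, and differed by 0.085 (SE 0.038, limma adjusted p = 0.484). Every H19 siRNA array was above every control array, the closest pair by 0.020. Of the 6 spindle and microtubule-associated proteins 2 were above 0 and 4 below. Ckap2, a spindle protein, read 8.97, 9.00 and 9.01 against 8.93, 8.90 and 8.95, a difference of -0.067 (limma adjusted p = 0.533). Dlgap5, a kinetochore fibre protein, read 9.15, 9.09 and 9.14 against 9.08, 9.06 and 9.08, a difference of -0.055. Both were lower on all 3 H19 siRNA arrays. Hmmr, a spindle pole protein that also binds hyaluronan, read 8.28, 8.41 and 8.38 against 8.27, 8.15 and 8.34, with overlapping groups and a difference of -0.10 (-0.24 to 0.042). Nusap1 differed by -0.037 and Tpx2, the activator of Aurka, by 0.019.

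Anln, anillin of the contractile ring, read 10.67, 10.66 and 10.67 against 10.63, 10.57 and 10.66. Its difference was -0.046, and the third H19 siRNA array lay 0.0012 below the lowest control. Ect2 and Racgap1, which switch on the ring through RhoA, differed by 0.039 and 0.023.

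Mki67, the Ki-67 antigen that coats mitotic chromosomes and is the common stain for cycling cells, read 10.13, 10.10 and 10.07 with control siRNA. With H19 siRNA it read 10.05, 9.95 and 10.06, and the difference was -0.078 (-0.18 to 0.022, limma adjusted p = 0.567). The groups do not overlap, by 0.0087 at the closest pair. Top2a, the topoisomerase that untangles sister chromatids, read 10.66, 10.63 and 10.61 against 10.63, 10.64 and 10.64, a difference of 0.0035 (-0.074 to 0.081), and its groups overlap. Hmgb2, a chromatin protein, differed by -0.044. Its 3 other probe sets gave -0.042, 0.011 and -0.010, and they too are annotated with 1 set of transcripts. A second probe set of Top2a read 3.98 ± 0.10 and 3.84 ± 0.047 (SD, n = 3 each), near the lowest values of the table, and 2 shared with Hibadh read between 4.41 and 5.04. The sign of the small Top2a value turned when the mean of its probe sets was used (-0.069), after median centring and without control siRNA replicate 3.

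The genes deviated together on single arrays. On the second H19 siRNA array 23 of 42 genes had their lowest value of the 6 arrays, beside 25.9% of all units. It was the lowest of the 3 H19 siRNA arrays for 36 of 42, beside 44.9% of units, and 37 lay below their own mean over the arrays. Their median deviation from that mean was -0.048 there, whereas that of all units was -0.0046. The third H19 siRNA array ran the other way, with 33 of 42 genes above their own mean, 0 at their lowest and a median deviation of 0.025. Of all units 58.2% lay above their own mean there, 10.6% were at their lowest and the median deviation was 0.011. Averaged over the 42 genes, log2 expression was 9.50, 9.53 and 9.51 with control siRNA and 9.51, 9.45 and 9.54 with H19 siRNA. The 3 control arrays fall between the H19 siRNA arrays, whose SD was 0.046, beside 0.012 for the controls.

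Without the second H19 siRNA array, 18 of 42 differences were below 0, the median was 0.0048 and 0 of 42 passed in limma. There 2 of 42 had an unadjusted limma p under 0.05, beside 12.1% of all units. Without the third, 27 were below 0 and the median was -0.023, also with 0 passing. Again 2 of 42 had an unadjusted limma p under 0.05, beside 11.6% of all units. The sign of the median thus turned with the second H19 siRNA array left out. The 69 other mitosis genes and the 44 genes of DNA replication deviated alike on the second H19 siRNA array, with medians of -0.061 and -0.044. The 31 regulators of cell cycle exit described below were also lowest there, at -0.035. The 4 fibroblast markers had a median of -0.045 on it, the 13 muscle markers 0.036 and the 6 macrophage and leukocyte markers 0.038. On that array the 5 endothelial and 4 adipocyte markers, all below the median of all rows, averaged 5.93 and 5.96, beside 5.70 to 5.81 and 5.70 to 5.84 on the other 5. The part of these dim signals in the result was not tested.

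**Figure D3:**
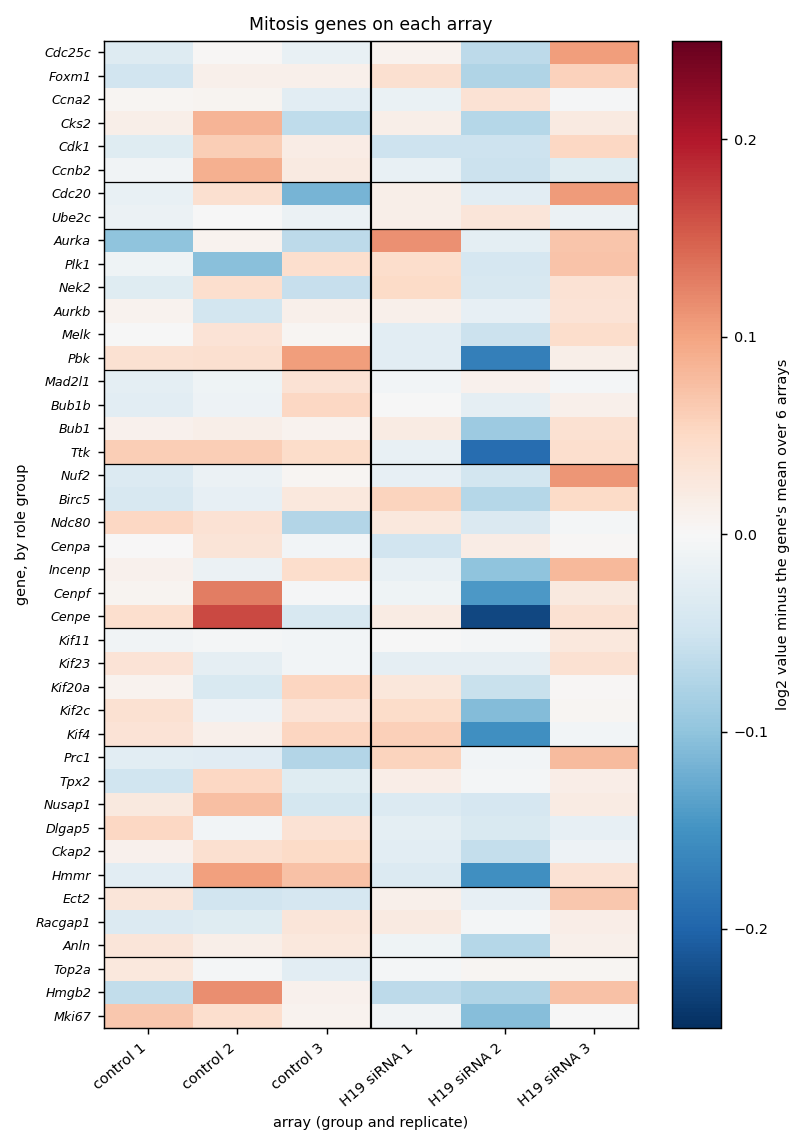
Each row is 1 gene and each column 1 array. Colour gives the log2 value minus the gene's mean over the 6 arrays, from blue (lower) to red (higher), and horizontal lines part the role groups. The column of the second H19 siRNA array is mostly blue (37 of 42 genes) and that of the third mostly red (33 of 42).

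**Figure D4:**
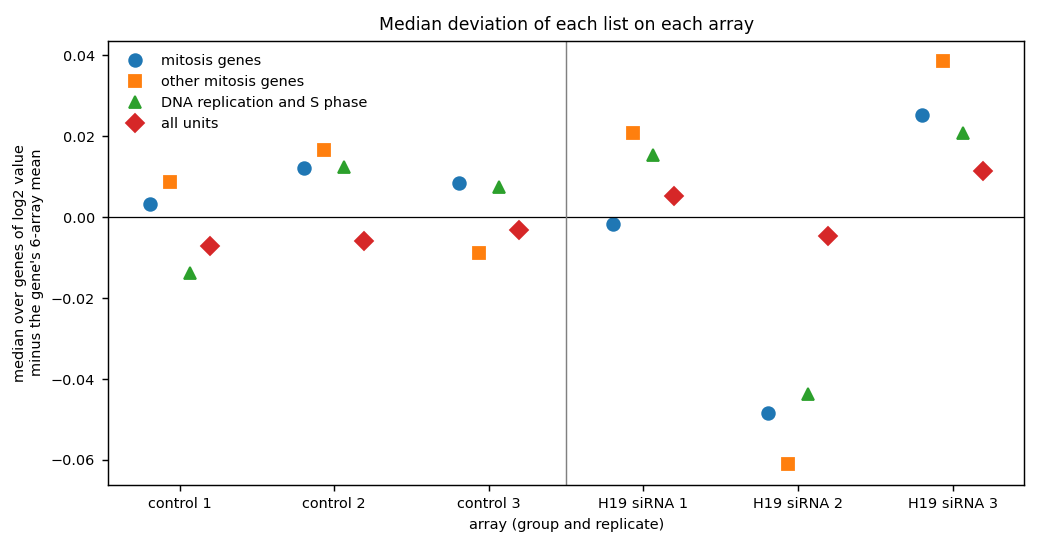
Points give, for each array, the median over genes of the log2 value minus the gene's mean over the 6 arrays, for the 42 mitosis genes, 69 other mitosis genes, 44 replication genes and all 21559 units. The 3 cell cycle lists shown lie lowest on the second H19 siRNA array, at -0.044 to -0.061, where all units lie at -0.0046. The list of cell cycle exit regulators, not shown, lies at -0.035 there.

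Other genes of the cell cycle, outside the list, were set beside it. Of 69 other mitosis genes 0 passed in limma, beside 0.199% of all units, and 0 had an unadjusted limma p under 0.05, beside 10.9%. The median difference was -0.0041, with a range from -0.15 to 0.077. The smallest p-values belonged to Spc25, a partner of Ndc80 (-0.15), the kinesin Kif15 (-0.084), the kinetochore protein Mis12 (-0.13) and the condensin subunit Ncapd3 (-0.099). All 4 had negative values and limma adjusted p-values from 0.463 to 0.526. Of 44 genes of DNA replication and S phase 0 passed, with a median of 0.0055 and a range from -0.20 to 0.25. At an unadjusted limma p under 0.05 there were 4 of 44, 3 higher and 1 lower. Of all units 6.61% were higher and 4.25% lower at that limit. Cdc45, of the replicative helicase, differed by 0.11 and Mcm3, a subunit of the same helicase, by -0.11. Pola2 of the primase complex differed by 0.10 and Cdc6, a licensing factor, by 0.25, with overlapping groups. Their limma adjusted p-values ran from 0.310 to 0.402.

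Of 31 regulators of cell cycle exit 0 passed in limma, beside 0.199% of all units. At an unadjusted p under 0.05 there were 10 of 31, 7 higher and 3 lower, beside 6.61% of all units higher and 4.25% lower, and the median was 0.031. Cdkn2c, the Cdk4 and Cdk6 inhibitor p18, read 9.52, 9.49 and 9.55 with control siRNA and 9.33, 9.24 and 9.28 with H19 siRNA. All 3 H19 siRNA arrays were lower, by -0.23 on average (limma adjusted p = 0.0996). E2f2, an activating E2F factor, read 9.53, 9.58 and 9.56 against 9.86, 9.72 and 9.81, a difference of 0.24 (limma adjusted p = 0.129). Cdkn2b, the inhibitor p15, and Rb1, the retinoblastoma protein, differed by 0.17 and 0.13, again with groups that do not overlap. With an intensity trend and robust variance Cdkn2c, E2f2 and Rb1 passed (limma adjusted p = 0.0092, 0.0082 and 0.018), and with a filter at the median of all rows Cdkn2c and E2f2 did (0.027 and 0.041).

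Of 13 muscle markers 1 passed, beside 0.125% of all units higher and 0.0742% lower. It was Tnnt2, the troponin T of developing muscle, at 0.26 (limma adjusted p = 0.0425). Of the 13, 11 had a positive difference and 2 a negative one, beside 42.0% of all units below 0. At an unadjusted limma p under 0.05 there were 8, all higher, beside 6.61% of units higher. Groups did not overlap for 9, all higher, beside 10.5% of units. The call of Tnnt2 was lost under 9 of 15 alternatives, with each array left out in turn (limma adjusted p from 0.0969 to 0.261), median centring (0.0528), every row tested (0.129) and the replicate block (0.326). Their mean level was 11.38 on all 3 control arrays and 11.49 to 11.54 on the H19 siRNA arrays, with no overlap. Of 4 fibroblast markers Pdgfra (-0.25) and Col3a1 (-0.096) were lower on all 3 H19 siRNA arrays, beside 7.09% of units. The other 2 were above 0 by up to 0.067, and 0 passed, beside 0.199% of units. Pdgfra passed with an intensity trend and robust variance (limma adjusted p = 0.0429), and the list's mean level ran from 9.35 to 9.40 with control siRNA and from 9.27 to 9.34 with H19 siRNA. Whether a shift in the mix of cells takes part in any of these values was not tested. No leukocyte, endothelial or adipocyte marker passed either.

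**Figure D5:**
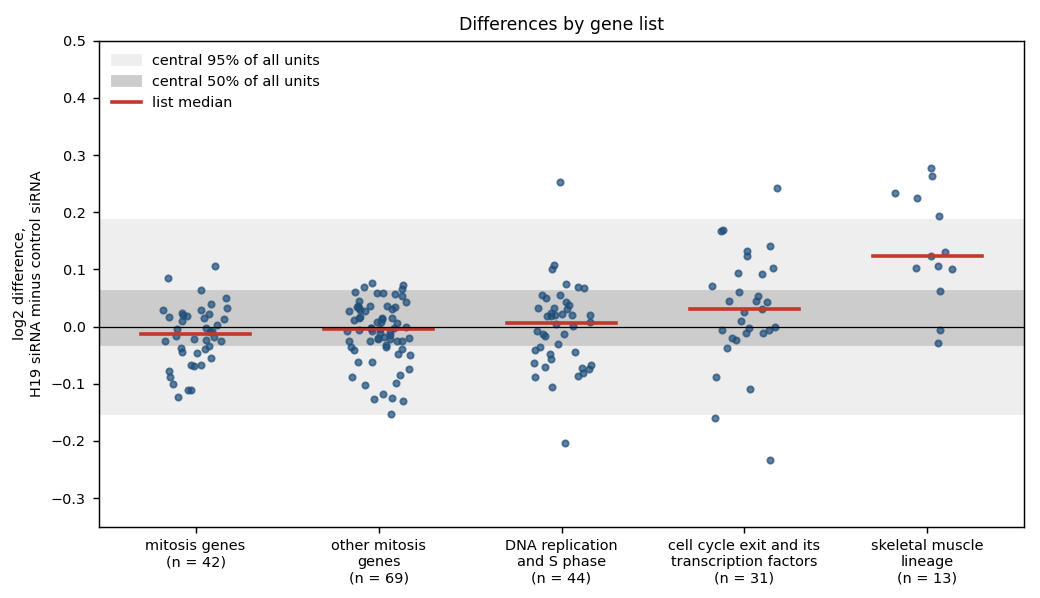
Points are genes, placed by their difference in log2 expression (H19 siRNA minus control siRNA) and grouped by list, with the list median in red. Grey bands hold the central 50% and 95% of all units, and all 42 mitosis genes lie inside the wider band.

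Differences were then set beside the promoter elements. The 25 measured genes with a CHR match had a median of -0.018 (-0.11 to 0.11) and the 8 with a window but no match a median of -0.013 (-0.11 to 0.030). Of the 9 genes whose groups do not overlap 7 had a window. All 7 windows held a CHR match, beside 73.5% of the windows of the list, and 6 held a CCAAT match, beside 76.5%. Of these genes Prc1 and Kif11 read higher, and Ccnb2, Ttk, Anln, Mki67 and Ckap2 read lower. With so few genes and no test, this is a description only.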

How the data were processed

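The authors deposited log2 expression values per probe set. They were made with RMA in Expression Console of Affymetrix, per the submitters' processing notes, with a version not given in the sources used here. Of 35556 rows on 6 arrays, with array medians from 6.73 to 6.78, 21789 rows had 1 symbol in the platform annotation, 1621 had several and stayed as unnamed units, and 12146 had none and were left out. Neither scanner values nor detection calls were used here, so dim probe sets are not marked, the scale was not checked against them, and the number of arrays limits precision. For 999 genes the probe set with the highest mean stood for the gene.

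The groups were compared with limma 3.58.1 (lmFit, eBayes; R 4.3.3), two-sided, with no covariate and no filter. Adjustment was by Benjamini-Hochberg over 21559 units, with a threshold of 0.05. The fit was tested on simulated data, with changes larger than any difference among the mitosis genes. That test does not cover differences as small as theirs. No pair of arrays was identical.

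The mitosis genes, the other lists and the tests were chosen with earlier results of these data known. Values per array were given for the 14 genes with the smallest p and for Cdk1, Plk1, Aurkb, Cdc20, Mki67, Top2a and Foxm1, and of each other cell cycle list up to 4 genes with the smallest p were named. Alternatives were a variance trend, array weights, median centring, a second quantile normalisation, filters on dim probe sets, the replicate number as a block, other probe set rules and leaving out each array.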

Additional observations from a re-analysis of the deposited data

How the results depend on the processing

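The count of 0 mitosis genes passing held in limma under all 15 alternatives, with a smallest adjusted p from 0.270 to 0.637. At an unadjusted limma p under 0.05 there were 0 to 3 of 42, beside 7.72% to 16.1% of the units tested. The median difference ran from -0.030 after median centring to 0.0048 without H19 siRNA replicate 2, the one alternative that turned its sign. Medians of single arrays over the genes had an SD within groups of 0.036. That SD describes single arrays and is not the error of a difference between group means. Genes whose groups do not overlap were 10 to 17 when 1 array was left out, a looser criterion with 2 arrays against 3, and 8 or 9 otherwise. Over all units 43 passed, and 435 with an intensity trend and robust variance, 70 with array weights, 75 and 214 with filters at the 30th percentile and the median, 11 with every row tested, 3 with the replicate block and 1 to 21 with 1 array left out, the most without H19 siRNA replicate 2 and no more than 4 without any other array. After median centring 34 passed, 52.9% higher against 62.8%, and with array weights 70.0% were higher. The replicate block changed no call among mitosis genes. The labels do not say whether the replicate numbers pair the arrays. Deviations from the group means correlated at -0.017, -0.13 and -0.14 for same-numbered arrays. For differently numbered arrays they ran from -0.026 to 0.13. Deviations centred within groups of 3 cannot settle the pairing. Of the 42 mitosis genes 20 changed sign under at least 1 alternative, 19 of them when 1 array was left out, each from a difference of at most 0.044 in size, and 22 kept their sign. After median centring Ccna2 was -0.0065, Top2a -0.013, Kif11 -0.0028 and Foxm1 -0.0013. With a second quantile normalisation Ccna2 was -0.0010 and Kif23 0.0015, and with the mean of its probe sets Top2a was -0.069. With 1 array left out Ccna2 ran from -0.0053 to 0.021, Cdc25c from -0.012 to 0.073, Aurkb from -0.0018 to 0.031, Bub1 from -0.046 to 0.018, Bub1b from -0.024 to 0.015, Mad2l1 from -0.014 to 0.016 and Top2a from -0.0089 to 0.018. In the same way Birc5 ran from -0.00011 to 0.063, Cenpa from -0.032 to 0.0016, Kif20a from -0.040 to 0.0076, Kif23 from -0.025 to 0.012, Kif2c from -0.072 to 0.0047 and Tpx2 from -0.0014 to 0.050. Lastly, Ndc80 ran from -0.049 to 0.013, Nuf2 from -0.019 to 0.059, Incenp from -0.072 to 0.018, Foxm1 from -0.010 to 0.057, Cks2 from -0.061 to 0.013 and Hmgb2 from -0.092 to 0.0035. The cause of these shifts was not tested.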
